A study of Rattus norvegicus with 16 samples.

Results

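The growth hormone, Cish and Igf1 axis was followed in the supraspinatus, a muscle of the rotator cuff, through 10 of the 17147 genes in the deposited count table: Ghr, Stat5a, Stat5b, Cish, Socs2, Socs3, Igf1, Igf1r, Igfbp3 and Igfbp5. The genes were chosen by name for their place in the pathway, with earlier results of these data in view, so their differences between groups are described here without p-values. All 10 were found in the table and passed the filter on low counts, as did 11658 genes in all. The 16 polyA RNA-seq libraries came from Sprague Dawley rats, with 4 libraries in each group. The 0 days group was unoperated muscle. The other 3 groups were muscle taken 10, 30 and 60 days after the supraspinatus had been torn through its full thickness on both sides, together with neurectomy (removal) of the suprascapular nerve that supplies it. All 12 operated libraries carry both the tear and the nerve lesion, and the labels describe no sham operation, so tear, denervation and surgery cannot be told apart. The labels used here give neither the age nor the sex of the rats. Each of the 16 library titles carries a different number and ends in L or R. The labels do not say what these mean, or whether any libraries share a rat. The spread between libraries may therefore in part be technical.

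As background, growth hormone from the pituitary binds its receptor, Ghr, on the cell surface, and the kinase Jak2 bound to the receptor then phosphorylates the transcription factors Stat5a and Stat5b. STAT5 dimers turn on Cish and Socs2, whose proteins damp the same receptor, and Igf1, the main mediator of growth hormone in growing tissue. Igf1 made within muscle acts locally through the receptor Igf1r, and the binding proteins Igfbp3 and Igfbp5 hold it in the tissue or the blood and set how much reaches the receptor. Socs3 belongs to the same family of inhibitors, but is best known as the brake on cytokines that signal through gp130 and Stat3.

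In operated muscle Ghr was 2.62 to 3.17 times lower than at 0 days. Stat5b fell at all 3 times (at 10 days not with scaling by library totals, where it was higher), and Stat5a did not pass the test at 10 days (0.13 on the log2 scale) and fell at 30 and 60 days (at 30 days not with library totals, where it was higher). The STAT5 targets Cish and Socs2 were 10.04 to 28.0 times and 2.01 to 2.60 times lower. Igf1, which is also a STAT5 target, was 1.59 to 2.39-fold higher at those same times, and its receptor Igf1r was 1.59 to 3.26-fold higher. The binding proteins followed courses of their own. Igfbp5 was 9.11-fold higher at 10 days and under the unoperated level at 60 days. That last call was lost with upper-quartile scaling, with library totals or without 60 days replicate 2. Igfbp3 was lower at 10 days (not called with library totals) and higher at 60 days. Socs3 did not pass the test at any time. At 30 and 60 days it was called higher with library totals or without 0 days replicate 2.

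A gene is said to have risen, fallen or changed where edgeR's quasi-likelihood test, fitted over all 11658 genes, gave an adjusted p under 0.05. By that rule 8 of the 10 genes had changed at 10 days, 3 of them upward and 5 downward, where 62.7% of all genes tested had (33.3% higher, 29.4% lower). The 30 days count was again 8, with 3 upward and 5 downward, against 64.6% of all genes (33.7% higher, 30.9% lower). By 60 days it was 9, with 3 upward and 6 downward, against 59.0% (29.9% higher, 29.1% lower). Most genes of this muscle had changed, so a count of calls does not set the 10 genes apart, and the choice of the genes used the same differences. Their median log2 fold changes were -0.24, -0.21 and -0.63 in that order, and those of all genes tested were 0.06, 0.05 and 0.04. These 3 comparisons share the unoperated libraries. Between operated times the counts were 6 of 10 from 10 to 30 days (all genes 47.3%), 4 from 30 to 60 days (22.6%) and 6 from 10 to 60 days (61.1%).

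**Figure D1:**
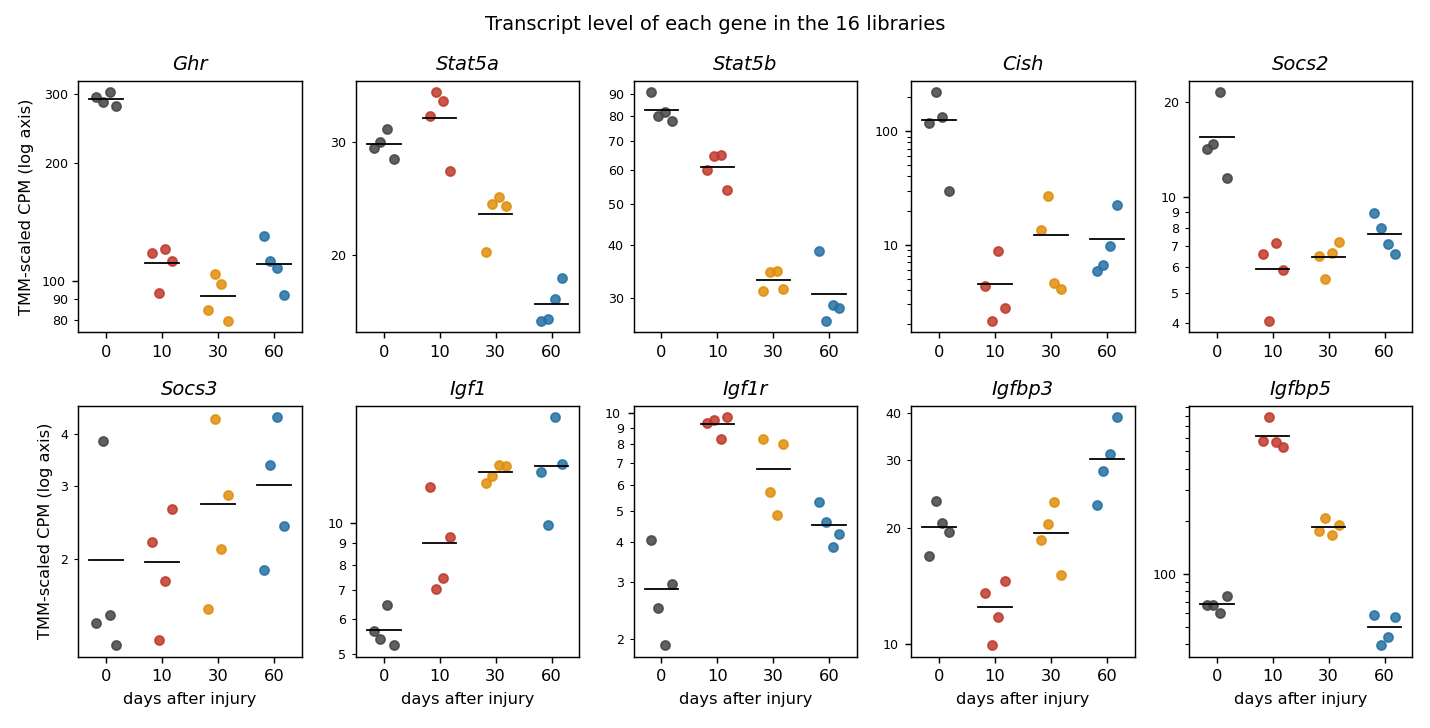
Level of each of the 10 genes in every library, in TMM-scaled CPM on a log axis with its own range for each gene, against days after injury; points are libraries and bars are group means of 4. Ghr, Stat5b, Cish and Socs2 lie higher in all 4 unoperated libraries than in any operated one, and Igf1 lies lower in all 4. How many of all genes separate in this way was not counted.

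The libraries held 17.2 to 39.9 M (mega) fragments, and all 4 of 60 days (17.2 to 22.4 M) were smaller than every other library. Levels are CPM (a gene's fragments per 1 M fragments) after TMM scaling, which sets the bulk of genes equal between libraries. A count of 3 corresponds to 0.0752 to 0.175 CPM, a limit of counting only. Scaling by library totals alone raised the all-gene median of the log2 fold change by 0.66, 0.49 and 0.41 at 10, 30 and 60 days, and what it changed is given beside each gene. The myofibre markers summed to 217000 to 237000 CPM at 0 days, 45400 to 48700 at 10 days, 82400 to 132000 at 30 days and 119000 to 134000 at 60 days, with 7, 6 and 5 of 7 tested markers lower at the 3 times (7, 5 and 3 with library totals, and 0, 1 and 1 higher). Their high level is that of skeletal muscle. Summed macrophage markers rose from 39.2 to 62.1 CPM at 0 days to 118 to 164, 168 to 203 and 138 to 259 CPM, with 8, 10 and 10 of 10 higher. Summed fibroblast markers went from 467 to 979 CPM to 867 to 2480, 1430 to 2260 and 1340 to 2810 CPM, with 4, 6 and 6 of 6 tested higher and Col1a2 listed at 0 in all libraries. In whole muscle, fewer cells of a type and less RNA per cell cannot be told apart, and the part of these shifts in the values below was not tested.

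Ghr is the cell-surface receptor for growth hormone. Its level was 295, 287, 303 and 279.6 CPM in the 4 unoperated libraries and 118, 93.3, 121 and 112 CPM at 10 days. It was 84.6, 104, 98.4 and 79.5 CPM at 30 days, and 130.2, 112, 108 and 92.1 CPM at 60 days. Every operated library thus held less than the lowest unoperated one, and within each group the libraries lay close together: the mean at 0 days was 291 ± 10.00 CPM (SD, n = 4). The log2 fold change against 0 days was -1.39 ± 0.11 (SE) at 10 days, -1.67 ± 0.11 at 30 days and, by 60 days, -1.39 ± 0.11. The lowest group was 30 days, then 60 and 10 days, then 0 days. Between operated times only the step from 10 to 30 days passed the test, at -0.28 ± 0.11, with overlapping libraries. That call was lost in 4 of 10 alternative settings, with values from -0.27 to -0.21, and in 11 of 16 fits without a library. The step from 30 to 60 days, 0.27 ± 0.11, did not pass, but did without 30 days replicate 2 (0.34) or 60 days replicate 4 (0.36). With library totals Ghr was still lower at 10 days, by -0.73 on the log2 scale, and from 10 to 60 days it then fell by 0.26.

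Stat5a and Stat5b are neighbouring and nearly identical genes for the transcription factors that Jak2 activates, so reads from one may have been counted for the other, and their separate values are uncertain to that extent. Stat5b read 91.0, 80.2, 81.8 and 77.9 CPM at 0 days and 59.8, 64.6, 65.0 and 53.8 CPM at 10 days. It then read 31.3, 34.6, 34.7 and 31.5 CPM at 30 days and 38.6, 26.6, 28.9 and 28.5 CPM at 60 days. The 3 operated groups each lay under the unoperated one without overlap, in the order 60, 30, 10 and 0 days from lowest to highest, and the 30 and 60 days groups did not differ beyond their spread. The log2 fold change against 0 days was -0.44 ± 0.10, -1.32 ± 0.10 and -1.43 ± 0.10 at 10, 30 and 60 days. The fall at 10 days depends on the scaling, since with library totals Stat5b was higher by 0.21 there. The step from 30 to 60 days, -0.11, passed the test only without 60 days replicate 1, its highest library of that time (-0.24).

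Stat5a read 29.4, 30.04, 31.4 and 28.3 CPM at 0 days and 32.9, 35.8, 34.8 and 27.0 CPM at 10 days. At 30 days it read 20.2, 24.0, 24.6 and 23.8 CPM, and at 60 days 15.8, 15.9, 17.1 and 18.4 CPM. The unoperated and 10 days libraries overlapped, while every 30 days library lay under both, and every 60 days library lay lower still. Against 0 days it changed by 0.13 ± 0.09 on the log2 scale at 10 days, which did not pass, -0.36 ± 0.09 at 30 days and -0.83 ± 0.09 at 60 days, and each step between operated times passed the test (-0.50 from 10 to 30 days, -0.46 from 30 to 60 days). Without 10 days replicate 4, its lowest library of that time, Stat5a was called higher at 10 days (0.21). With library totals it was higher at 10 days (0.79) and the fall at 30 days turned to 0.13, so the direction up to 30 days depends on the scaling while the fall from 30 to 60 days does not.

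Cish encodes an SH2 protein that is induced by STAT5 and blocks its docking at the receptor. The 250 bases before its annotated start are shown because Cish is a textbook STAT5 target and this window holds 4 STAT motifs. The window is chr8:116850719-116850968 on the plus strand of GRCr8, taken from RefSeq, with matches to TTCNNNGAA in capitals, the core that STAT proteins recognise:
Cish promoter: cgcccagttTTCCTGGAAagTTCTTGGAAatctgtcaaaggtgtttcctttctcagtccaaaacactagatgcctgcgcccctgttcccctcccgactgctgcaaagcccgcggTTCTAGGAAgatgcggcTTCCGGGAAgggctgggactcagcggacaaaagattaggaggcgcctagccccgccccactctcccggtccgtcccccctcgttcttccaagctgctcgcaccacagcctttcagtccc
The motif reads the same on both strands, no other motif was searched, and the matches do not overlap each other. The 4 matches, TTCCTGGAA, TTCTTGGAA, TTCTAGGAA and TTCCGGGAA, begin 241, 230, 136 and 119 bases before the start. Of 33469 such windows in the RefSeq table, 7.67% held at least 1 match and 2 (0.00598%) held 4, those of Cish and LOC120095689. Of the 10 genes, 9 had a window (not Socs2), and the windows of the other 8 held no match. This says only that these letters are not in those windows. The counts need no coordinates, and their own build, rn5, differs from that of the window.

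Cish was at 119, 220.3, 134 and 29.6 CPM in the unoperated libraries, and at 4.32, 2.14, 8.77 and 2.77 CPM at 10 days. At 30 days it was at 13.6, 26.7, 4.60 and 4.06 CPM, and at 60 days at 5.86, 6.56, 9.82 and 22.3 CPM. Each operated library was below each unoperated one, but by little at the edge: the lowest unoperated library held 29.6 CPM and the highest operated one, 30 days replicate 2, held 26.7 CPM. Fragment counts were 619 to 6005 per library at 0 days and 65 to 266 at 10 days, so the counts were well above the floor. The log2 fold change against 0 days was -4.81 ± 0.78 at 10 days (28.0 times lower), -3.33 ± 0.71 at 30 days (10.04 times lower) and -3.48 ± 0.73 at 60 days (11.2 times lower). Among the 11658 genes tested these were the 11th, 22nd and 11th largest falls. Leaving out 30 days replicate 2 made the fall at 30 days larger (-4.07), as leaving out 60 days replicate 4 did at 60 days (-4.07), which moves each fold by more than 1.5 times. With library totals the fall at 10 days was -4.14.

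Cish also varied more between libraries of a group than nearly any gene compared. The genes compared were the 8476 with a mean of at least 5 CPM. The pooled SD of Cish within groups was 1.09 on the log2 scale, larger than that of 99.9% of them, whose median was 0.15. Within a group the highest library held 3.81 to 7.43 times the lowest. The operated groups stood in the order 10, 60 and 30 days by mean, 4.50 ± 2.99, 11.1 ± 7.65 and 12.2 ± 10.6 CPM, and none of the steps between them passed the test (1.48 ± 0.72 from 10 to 30 days, -0.16 ± 0.70 from 30 to 60 days and 1.32 ± 0.74 from 10 to 60 days). The step from 30 to 60 days changed sign to 0.58 without 30 days replicate 2 and was -0.75 without 60 days replicate 4. A return towards the unoperated level was therefore not detectable with these libraries.

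Socs2, a STAT5-induced inhibitor whose loss in mice gives gigantism, overlaps a long noncoding gene (LOC134479868) in the RefSeq annotation, and since the strand setting of the counting is not given in the sources used here their reads cannot be told apart. Socs2 read 14.2, 14.7, 21.4 and 11.5 CPM at 0 days and 6.62, 4.07, 7.18 and 5.87 CPM at 10 days. It read 6.52, 5.51, 6.68 and 7.24 CPM at 30 days and 8.95, 8.02, 7.13 and 6.62 CPM at 60 days. All operated libraries were below all unoperated ones. Relative to 0 days the log2 difference was -1.38 ± 0.19 at 10 days, -1.26 ± 0.19 at 30 days and -1.01 ± 0.19 at 60 days, and with library totals it was still lower at 10 days, at -0.72. From lowest to highest the groups were 10, 30, 60 and 0 days, and the steps between operated times, 0.12, 0.25 and 0.37, did not pass the test.

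Socs3, the gp130 inhibitor, had few reads, with 25 to 183 fragments per library. It read 1.41, 3.85, 1.47 and 1.25 CPM at 0 days and 2.21, 1.28, 1.78 and 2.64 CPM at 10 days. At 30 days it read 1.52, 4.35, 2.12 and 2.86 CPM and at 60 days 1.89, 3.37, 4.38 and 2.40 CPM. The groups overlapped throughout, with 1 unoperated library, replicate 2, far above the other 3. Its log2 fold change against 0 days was -0.04 ± 0.40, 0.43 ± 0.39 and 0.55 ± 0.40, and none passed the test. Without 0 days replicate 2, Socs3 was called higher at 30 days (1.00) and 60 days (1.13), and with library totals likewise (0.91 and 0.96). Its within-group SD, 0.59, was larger than that of 98.7% of genes compared. Those genes had a mean of at least 5 CPM and Socs3 one of 2.42 CPM, so they were better counted.

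**Figure D2:**
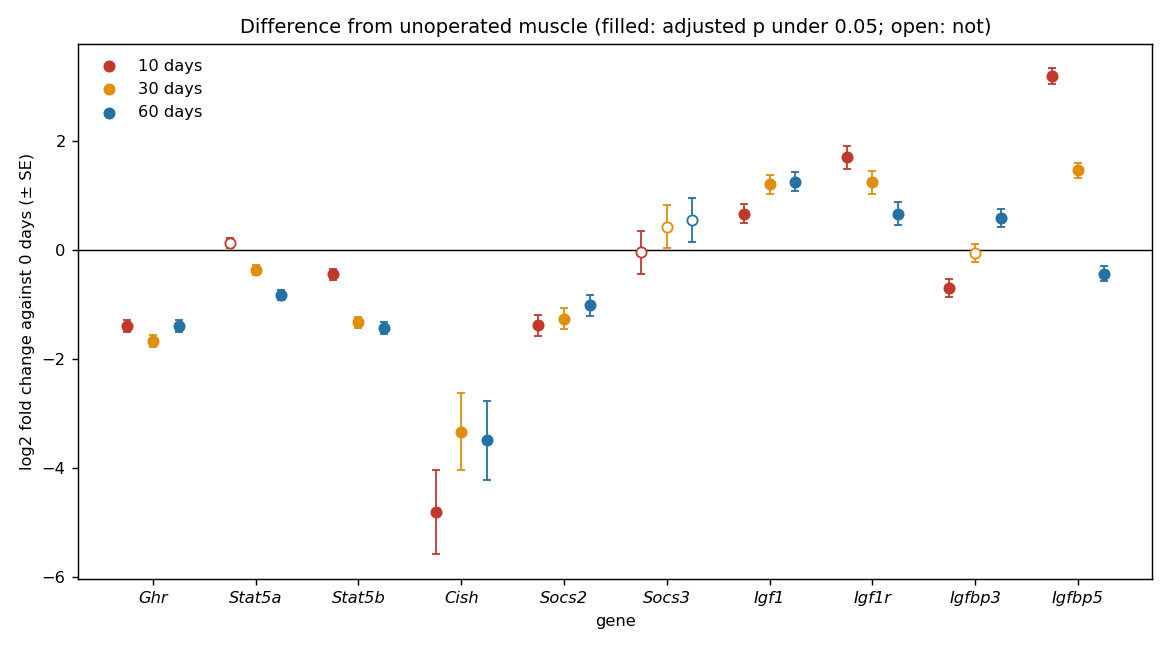
Log2 fold change of each of the 10 genes against 0 days at 10, 30 and 60 days, with bars of 1 SE; filled points passed the test and open points did not. Cish has the lowest values (-4.81 to -3.33) and the widest bars, and Igfbp5 goes from 3.19 at 10 days to -0.43 at 60 days.

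Igf1, the secreted growth factor, read 5.62, 5.39, 6.47 and 5.22 CPM at 0 days and 12.1, 7.06, 7.48 and 9.31 CPM at 10 days. It read 12.4, 12.8, 13.6 and 13.6 CPM at 30 days and 13.1, 9.93, 17.6 and 13.7 CPM at 60 days. All operated libraries were above all unoperated ones, and the 30 days libraries were the most even. Igf1 exceeded the unoperated level by 0.66 ± 0.17, 1.21 ± 0.17 and 1.26 ± 0.18 on the log2 scale at 10, 30 and 60 days, and the difference was larger with library totals (1.32 at 10 days). Igf1 rose further from 10 to 30 days (0.54) and was higher at 60 than at 10 days (0.59), but neither passed with library totals (0.38 and 0.34), and the 30 and 60 days groups did not differ beyond their spread (0.05). The markers of macrophages and of fibroblasts, 2 cell types known to make Igf1, were higher at the same times, as given above, and their part in the Igf1 values was not tested.

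Igf1r, the receptor tyrosine kinase for Igf1, overlaps Pgpep1l and a noncoding gene (LOC134483685) in the annotation, with the same limit on strand. It read 4.05, 2.49, 1.92 and 2.97 CPM at 0 days and 9.31, 9.53, 8.34 and 9.71 CPM at 10 days. It read 8.33, 5.72, 4.84 and 8.002 CPM at 30 days and 5.30, 4.60, 3.86 and 4.22 CPM at 60 days. The 10 days libraries were above all libraries of the other groups, by little at the edge (8.34 against 8.33 CPM), and the 60 days libraries overlapped the unoperated ones at 1 point, 0 days replicate 1. At 10, 30 and 60 days Igf1r exceeded the unoperated level by 1.70 ± 0.21, 1.25 ± 0.21 and 0.67 ± 0.21 on the log2 scale, all called, and it fell from 10 to 60 days by 1.03. Where it fell between them is less clear. From 10 to 30 days the change was -0.46 ± 0.19 and not called, but 5 of 10 alternatives called it, among them the fit with the replicate block (-0.49), and so did 4 of 16 fits without a library. From 30 to 60 days it was -0.58 ± 0.20 and called, but 6 of 10 alternatives and 11 of 16 fits without a library did not call it.

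Igfbp5, a binding protein of muscle and bone, had the largest rise of the 10 genes. It read 67.2, 66.9, 60.6 and 75.2 CPM at 0 days and 575, 784, 568 and 533 CPM at 10 days. It read 177, 209, 167 and 191 CPM at 30 days and 59.1, 39.5, 43.8 and 57.5 CPM at 60 days. The 4 groups did not overlap at all, in the order 60, 0, 30 and 10 days from lowest to highest. Its log2 fold change against 0 days was 3.19 ± 0.15 at 10 days (9.11-fold, the 197th largest rise of all genes tested), 1.46 ± 0.14 at 30 days (2.75-fold) and -0.43 ± 0.14 at 60 days. From 10 to 60 days it fell by 3.62, or 12.3 times. The value at 60 days was the least firm: it did not pass with upper-quartile scaling (-0.29), with library totals (-0.02) or without 60 days replicate 2 (-0.34).

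Igfbp3, the main carrier of Igf1 in blood, moved the other way in time. It read 16.9, 23.5, 20.7 and 19.5 CPM at 0 days and 13.6, 9.89, 11.7 and 14.6 CPM at 10 days. It read 18.7, 20.4, 23.3 and 15.1 CPM at 30 days and 23.0, 28.2, 31.2 and 38.9 CPM at 60 days. The 10 days libraries were below all unoperated and 30 days ones, the unoperated and 30 days libraries covered the same range, and 60 days replicate 1 lay within the unoperated range while the other 3 were above it. Relative to 0 days Igfbp3 differed by -0.70 ± 0.17, -0.06 ± 0.17 and 0.59 ± 0.17 on the log2 scale, the second of which did not pass, with a rise of 1.28 ± 0.17 from 10 to 60 days. Against 0 days its course depends on the scaling: with library totals the fall at 10 days was -0.04 and not called, and at 30 days it was called higher by 0.43. The rise between operated times passed at each step (0.64 and 0.64).

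Igf1, Cish and Socs2 are all STAT5 targets, so it was asked whether they varied together between libraries of one group, a question the choice of the genes did not use. Group means were removed, and deviations were compared over the 16 libraries by permutation within groups (100000 draws, two-sided), with the 3 pairs adjusted together. For Cish and Socs2 Pearson's r was 0.16 (permutation p = 0.599, adjusted p = 0.7) and Spearman's rho 0.003 (p = 0.995, adjusted p = 0.996). For Cish and Igf1 r was 0.10 (permutation p = 0.7, adjusted p = 0.7) and rho 0.003 (p = 0.996, adjusted p = 0.996). For Socs2 and Igf1 r was 0.29 (permutation p = 0.369, adjusted p = 0.7) and rho 0.28 (p = 0.386, adjusted p = 0.996). Without the 2 libraries farthest from the median of the first gene, r was 0.10, 0.07 and -0.0007. No shared variation was detectable over these 16 libraries, which does not show that the genes vary independently. The largest deviations of Cish were -1.76 (0 days replicate 4) and 1.55 (30 days replicate 2) on the log2 scale, where Socs2 deviated by -0.39 and -0.23.

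**Figure D3:**
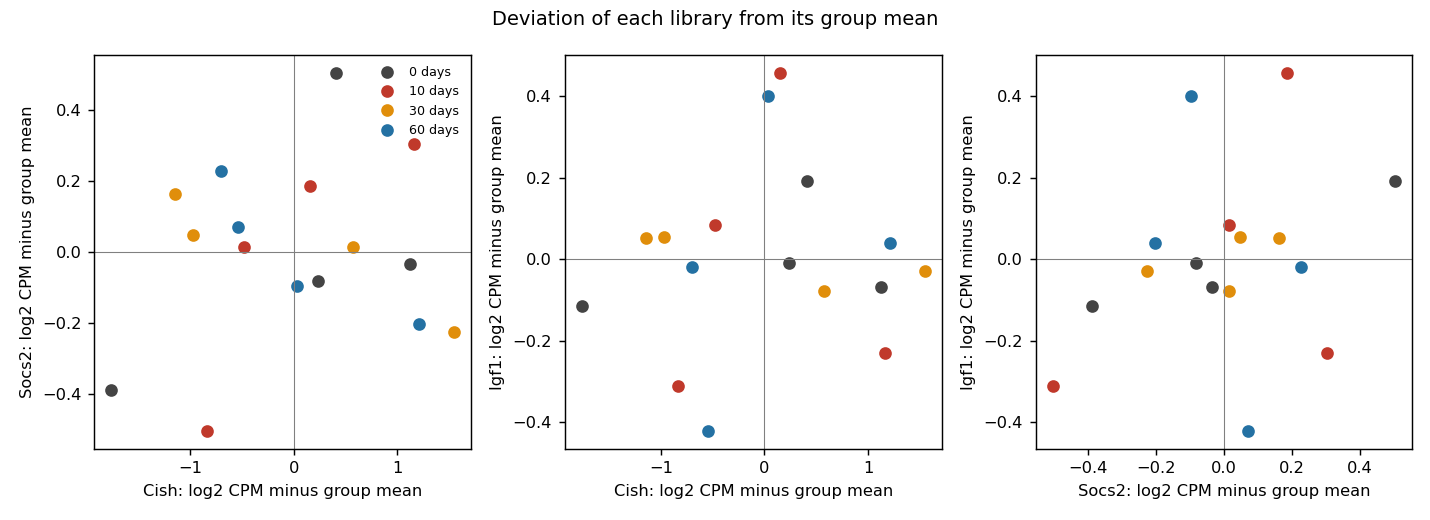
Deviation of each library from its group mean, on the log2 CPM scale, for the pairs Cish and Socs2 (r = 0.16), Cish and Igf1 (r = 0.10), and Socs2 and Igf1 (r = 0.29); points are the 16 libraries, coloured by group. The points show no line in any panel, and the Cish axis spans a wider range than that of Socs2 or Igf1.

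The patterns of the 10 genes over the 16 libraries were set beside those of the other genes with a mean of at least 5 CPM, by Pearson correlation of log2 CPM, as a description only. The libraries share 4 groups and 1 scaling, so high values are common. Cish was most like Sipa1l1 (0.91), Reep1 (0.91) and Crocc (0.90), and Socs2 most like Cdh15 (0.94) and Satb1 (0.94). Ghr was most like Agtpbp1 (0.99) and Eml1 (0.98), Stat5b most like Dcun1d2 (0.99) and Stat5a most like Mettl13 (0.95). Igf1 was most like Ltbp2 (0.95) and Thbs4 (0.95), Igf1r most like Usp20 (0.97), Igfbp3 most like Prkcdbp (0.96) and Igfbp5 most like Vps37b (0.99). Socs3 had the weakest best match, Adamts12 (0.76).

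The rest of the pathway was taken from 7 lists of 79 genes drawn from knowledge of the pathway, of which 70 could be tested. At 10 days 51 of the 70 (72.9%) had changed, 28 upward and 23 downward. The 30 days count was 49 (70.0%), 19 upward and 30 downward, and the 60 days count 43 (61.4%), 18 upward and 25 downward. All genes tested gave 62.7%, 64.6% and 59.0%, and the medians of the 70 genes were 0.11, -0.11 and -0.08. The split depends on the scaling: with library totals it was 51 higher and 4 lower, 37 and 11, and 33 and 8, and with upper-quartile factors 30 and 21, 22 and 25, and 23 and 24.

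Of the receptors and kinases 7 were tested, with 5, 3 and 2 higher and 0, 2 and 3 lower at 10, 30 and 60 days (with library totals 5, 5 and 4 higher and 0, 1 and 0 lower). Jak2, the kinase that the growth hormone receptor carries, did not follow its receptor. It read 30.4, 29.5, 27.4 and 31.8 CPM at 0 days, 59.8 to 72.2 CPM at 10 days, 24.6 to 34.1 CPM at 30 days and 15.7 to 20.4 CPM at 60 days. Jak2 was thus higher in all 4 libraries of 10 days (1.20 ± 0.10, adjusted p = 5.11e-08), not called at 30 days (0.001 ± 0.10, adjusted p = 0.994), where libraries lay on both sides of the unoperated range, and lower in all 4 of 60 days (-0.69 ± 0.11, adjusted p = 4.59e-05). With library totals it was higher at 30 days (0.50) and the fall at 60 days was not called (-0.28). Tyk2, a kinase of cytokine receptors, was higher by 0.70 and 0.52 at 10 and 30 days, and by 0.22 at 60 days, a call lost without any of 0 days replicate 2, 0 days replicate 3 or 60 days replicate 2. Insr, the insulin receptor, was lower at 30 days (-0.89 ± 0.18) and 60 days (-0.64 ± 0.18), the latter not with library totals (-0.25).

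Among the IGF carriers and their proteases 9 were tested, with 4, 5 and 6 higher and 5, 3 and 2 lower (with library totals 5, 6 and 6 higher and 2 lower each time). Igf2, the second IGF ligand, was at 55.5 to 75.3 CPM at 0 days and 191 to 404, 304 to 793 and 116 to 224 CPM at 10, 30 and 60 days, higher by 2.08, 2.93 and 1.43 on the log2 scale. Igfbp4, which inhibits IGF action, was higher at all 3 times (1.19, 1.74 and 1.41), with no overlap with the unoperated libraries. Igfbp6, which prefers Igf2, had a course like that of Igfbp3: lower at 10 days (-0.91 ± 0.28, though -0.26 and not called with library totals), not called at 30 days (0.42, though 0.90 and called with library totals) and higher at 60 days (1.20 ± 0.28). Igfals, the acid-labile subunit that joins Igfbp3 and Igf1 in the circulating complex, lay outside the rule for named genes because of its low level and was picked after its values were seen. It read 1.52, 1.54, 3.12 and 2.11 CPM at 0 days, 0.0307 to 0.198 CPM at 10 days (1 to 6 fragments), 0.121 to 0.240 CPM at 30 days and 0.280 to 0.468 CPM at 60 days. Igfals was lower in every operated library, by -2.44 ± 0.34 at 60 days, where each library had 5 to 9 fragments.

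The list of other SOCS genes and phosphatases had 9 tested genes, with 4, 2 and 2 higher and 2, 3 and 3 lower (with library totals 7, 6 and 5 higher and 0, 2 and 1 lower). Sirpa, a membrane protein that binds SH2 phosphatases and is abundant on macrophages, had the second largest rise of the 21 named genes shown, after Cdkn1a. It was at 10.8 to 12.6 CPM in unoperated muscle and at 285 to 417, 115 to 212 and 39.0 to 103 CPM afterwards, higher by 4.77 ± 0.30, 3.85 ± 0.29 and 2.36 ± 0.28. Macrophage markers were higher at the same times, but their course differed. From 10 to 60 days Sirpa fell (-2.41), while 4 of the 10 macrophage markers rose and 0 fell. The part of macrophages in the Sirpa values was not tested. Ptpn11, the phosphatase SHP2, was lower by -1.41 ± 0.11 at 30 days and -1.31 ± 0.11 at 60 days, and its fall at 10 days (-0.51) turned to 0.14 with library totals. Socs6, an inhibitor of receptor kinases, was lower at the 3 times (-0.49, -1.01 and -0.61), which with library totals turned to 0.17 at 10 days and was not called at 60 days (-0.22).

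Of the other STAT5 targets 7 were tested, with 3, 1 and 1 higher and 1, 2 and 2 lower. With library totals 6, 3 and 3 were higher and 1, 2 and 1 lower. In all, 4, 3 and 3 of the 7 had changed, where 62.7%, 64.6% and 59.0% of all genes had. Cdkn1a, the cell cycle inhibitor p21, had the largest rise: 31.8 to 58.4 CPM at 0 days and 1412 to 1921, 1421 to 1873 and 852 to 2199 CPM afterwards, or 36.1, 36.2 and 26.4-fold (edgeR adjusted p = 2.36e-09, 3.01e-09 and 1.50e-08). Cdkn1a is also a target of p53 and of muscle differentiation factors. Bcl6, a transcriptional repressor, was higher at 10 days (0.97 ± 0.28) and did not pass at 30 days (0.53) or 60 days (0.14). The 30 days value was called higher with library totals (1.01), with upper-quartile factors (0.65) and without 30 days replicate 1. Mcl1, a survival protein, was lower at 30 days (-0.81 ± 0.10) and 60 days (-0.48 ± 0.10), the latter not with library totals (-0.08), and at 10 days it was -0.04, or 0.62 and called with library totals. Of these genes 5 had a promoter window, and TTCNNNGAA was found in windows of 1, Bcl2l1.

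Of the gp130 cytokines, receptors and STATs, the pathway that Socs3 restrains, 10 were tested, with 4, 4 and 3 higher and 4, 3 and 3 lower (with library totals 7, 7 and 6 higher and 0, 1 and 0 lower). Il6st, which is gp130 itself, was at 161 to 177 CPM at 0 days and at 364 to 421, 267 to 357 and 202 to 261 CPM afterwards, higher by 1.21 ± 0.10, 0.89 ± 0.10 and 0.46 ± 0.10. Stat3, its transcription factor, was higher by 0.89 ± 0.12, 0.58 ± 0.12 and 0.39 ± 0.12, with no overlap with the unoperated libraries. Cntfr, the receptor subunit for ciliary neurotrophic factor, was higher at 30 days (1.11 ± 0.19, adjusted p = 1.03e-04). At 10 days Cntfr was 0.44 ± 0.19 (adjusted p = 0.0514), which passed in 4 of 16 fits without a library and with upper-quartile factors (0.50). Its 60 days value was 0.10 and not called. Library totals gave a call for Cntfr at 10 days (1.10) and 60 days (0.52) as well. With library totals Stat3 and Il6st were also higher at all 3 times.

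Downstream of Igf1r, 18 insulin receptor substrates and genes of the PI3K and AKT step were tested, with 6, 4 and 3 higher and 7, 9 and 5 lower. The balance turned with library totals, which gave 13, 9 and 7 higher and 1, 1 and 3 lower. Irs1 and Irs2, the docking proteins of the insulin and IGF1 receptors, were lower at 10 days (-1.39 ± 0.32 and -1.38 ± 0.32) and at 30 days (-0.89 ± 0.32 and -1.69 ± 0.33) while Igf1 and Igf1r were higher. Irs1 varied from 14.6 to 41.0 CPM and Irs2 from 25.8 to 72.3 CPM among the unoperated libraries. The fall of Irs1 at 30 days was not called without 0 days replicate 3 or 30 days replicate 1, nor with library totals (-0.40), and that of Irs2 at 10 days not with library totals (-0.73). At 60 days neither passed (-0.72, adjusted p = 0.0646 and -0.75, adjusted p = 0.0544), though each did in 2 or 3 of 16 fits without a library. Akt1, the kinase downstream, was at 110.5 to 119 CPM at 0 days, 169 to 200 CPM at 10 days, 72.7 to 84.8 CPM at 30 days and 60.4 to 93.0 CPM at 60 days. Akt1 was higher by 0.72 ± 0.11 at 10 days and lower by -0.55 ± 0.11 and -0.66 ± 0.11 afterwards, of which the 30 days value was -0.06 and not called with library totals.

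Of the mTORC1 genes and its growth outputs 10 were tested, with 2, 0 and 1 higher and 4, 8 and 7 lower. The lower calls depend on the scaling: with library totals 8, 1 and 2 were higher and 0, 2 and 1 lower. Tsc1, a brake on mTORC1, was at 31.8 to 49.1 CPM at 0 days and 28.4 to 34.9 CPM at 10 days, and at 11.7 to 14.1 and 10.5 to 20.7 CPM at 30 and 60 days, where it was lower by -1.60 ± 0.18 and -1.51 ± 0.18. At 10 days Tsc1 was -0.29 and not called, and with library totals 0.37 and called. Ddit4 (REDD1), a stress-induced inhibitor of mTORC1, was higher at 60 days (1.13 ± 0.26), where all 4 libraries (40.3 to 65.0 CPM) were above the unoperated 14.9 to 37.3 CPM. Its fall at 10 days (-0.65) was lost in 5 of 16 fits without a library and was 0.008 with library totals. Eif4ebp1, the translation repressor that mTORC1 inactivates, was lower by -0.64, -0.86 and -0.43, of which the values at 10 and 60 days were 0.02 and -0.03 with library totals.

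**Figure D4:**
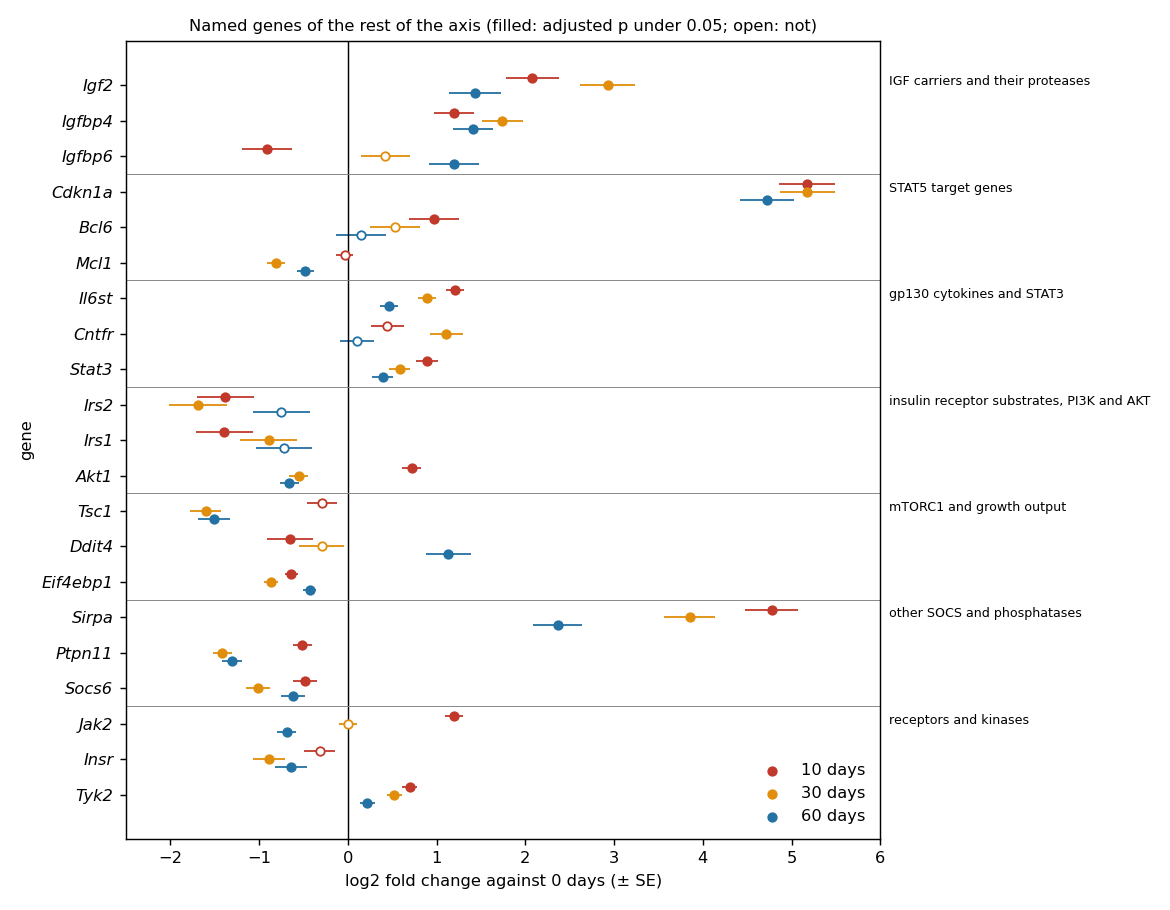
Log2 fold change against 0 days, with bars of 1 SE, for the 21 named genes of the 7 lists of the rest of the pathway, grouped by list; filled points passed the test and open points did not. Cdkn1a and Sirpa lie farthest to the right, Jak2 and Akt1 go from higher at 10 days to lower at 60 days, and Irs1, Irs2, Ptpn11 and Tsc1 lie to the left.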

How the data were processed

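Libraries of polyA RNA from supraspinatus muscle were made, per the labels, with Illumina's TruSeq mRNA v2 chemistry. The authors deposited 1 table of expected counts (raw fragments per gene, not scaled for depth or length), with 1 column per library and genes by symbol. The submitters' processing notes name bcl2fastq 1.8.4, FastQC, TopHat2 2.0.9, Bowtie2 2.1.0.0, Cufflinks, Cuffdiff 2.1.1 and the build rn5. The annotation, strand setting and filters are not given in the sources used here.

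Counts were rounded to whole numbers. With edgeR 4.0.16 (R 4.3.3) genes were filtered by filterByExpr, which left 11658 of 17147 (2637 had no fragment), and scaled by TMM. The quasi-likelihood model held all 16 libraries, used robust estimation and had no covariate. P-values were adjusted by Benjamini-Hochberg over all genes tested, and a gene was called at an adjusted p under 0.05. The fit was tested on simulated data. The smallest library allows a level of 3 counts, or 0.175 CPM, to be seen. Such a floor covers counting error alone, because PCR copies of a molecule are not independent.

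The 10 genes, the lists and the tests were chosen with earlier results of these data known. Named genes of each list were up to 3 with the largest fold change among those called, with a mean of at least 5 CPM and no overlap with 0 days, and always Jak2, Insr, Irs1, Irs2, Akt1, Stat3, Il6st and Igf2. The rule names 1 further gene, which is not reported here, so the 21 named genes shown are not its complete set; the counts over lists include it. Not tested for low counts were Prlr, Igfbp1, Pappa, Osm and Lif, and Pappa2, Socs7, Rictor and Deptor were not matched by symbol.

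Libraries of one group differed beyond sampling noise (chi-square per gene 13.9 to 107). Suffixes shared by libraries of different groups did not pair them: the mean correlation of their deviations was 0.0013 over 24 pairs, with 4 over 0.1. Alternatives were RLE, upper-quartile and library-total scaling, DESeq2 1.42.0, limma-voom 3.58.1, 2 filters, the compared groups alone, a replicate block, the letter that ends each title, and leaving out each library. Promoter sequences and overlaps came from RefSeq tables for GRCr8.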

Additional observations from a re-analysis of the deposited data

Results flagged for a closer look

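Among the 40 groups of 4 libraries tested (10 genes, 4 groups), 2 held a library far from the other 3, and chance alone gives about 1 in 20. Socs3 read 3.852 CPM in 0 days replicate 2, with a gap to the nearest library that took up 0.913 of the group's range. Igfbp5 read 784.3 CPM in 10 days replicate 2, with a gap of 0.836 of the range, and its rise at 10 days was called without that library as well.

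For 2 genes the difference from 0 days went opposite ways at different times, and the change between those times is given beside it. Igfbp3 was lower at 10 days and higher at 60 days, and it rose from 10 to 60 days by 1.2843 on the log2 scale. Igfbp5 was higher at 10 and 30 days and lower at 60 days, and from 10 to 60 days it changed by -3.6199 and from 30 to 60 days by -1.8935. These comparisons share libraries and come from the same fit, so the change between times follows from the differences against 0 days. The genes were chosen with such differences in view, so the values are a description only. The fall of Igfbp3 at 10 days and that of Igfbp5 at 60 days were not called with library totals.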

How the results depend on the processing

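Of 600 values (10 genes, 6 comparisons, 10 alternatives), 573 kept their side of the threshold, 15 lost a call, 9 gained one and 3 turned direction. The 3 were all with library totals: Stat5b at 10 days became 0.21, Stat5a at 30 days 0.13 and Igfbp3 at 30 days 0.43. A turn of direction was counted only where the reported or the alternative value was called. Changes of sign between values that were not called are among the 573, such as Socs3 at 10 days (-0.04 here, and up to 0.62 over the alternatives). With library totals the calls among the 10 genes became 5 higher and 3 lower, 5 and 4, and 4 and 5 at 10, 30 and 60 days. Of 960 values with a library left out, 927 kept their side of the threshold, 23 lost a call, 10 gained one and 0 turned direction by the same rule. Signs did change between values that were not called, as for Cish from 30 to 60 days (-0.75 to 0.58). The counts of calls stayed within 1.5 times the reported ones: 8 at 10 days, 8 to 9 at 30 days and 8 to 9 at 60 days over the alternatives, and 8 to 9, 8 to 9 and 8 to 10 with a library left out. For the 70 other genes they were 48 to 55, 45 to 49 and 41 to 47, and 47 to 52, 43 to 49 and 41 to 47 with a library left out. The replicate block (the suffix of the description label) changed 1 of 60 values, Igf1r from 10 to 30 days (-0.49, now called). Correlations of deviations had none past the threshold, and with a library left out they ran from -0.11 to 0.34, -0.008 to 0.23 and 0.07 to 0.45 for Cish with Socs2, Cish with Igf1 and Socs2 with Igf1. Of the 10 genes Socs3 had the fewest fragments (25 to 183 per library), and 60 days has the smallest libraries.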

Other observations

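Some libraries were often the highest or the lowest of their group within the pathway. In 60 days replicate 1 the level was the highest of its group for 13 of the 21 named genes shown of the rest of the pathway, where replicates 2, 3 and 4 had 3, 2 and 3. Cdkn1a read 2199 CPM there and 852 to 988 CPM in the other 3, Sirpa 103 against 39.0 to 60.5 CPM, and Irs1 26.9 against 11.2 to 11.8 CPM. Among the 10 genes of the axis it was the highest for 5, Stat5b among them, and the lowest for 4. Of the same 10 genes, 0 days replicate 4 was the lowest of its group for 7, and it enters every comparison against 0 days. For 6 of the 10, 10 days replicate 2 was the lowest of its group. Of the 21 named genes shown, 60 days replicate 3 was the lowest for 10. These libraries were picked after their values were seen.

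The other cell type markers, read for the same libraries, moved as follows at 10, 30 and 60 days against 0 days. The satellite cell and myoblast markers summed to 75.6 to 94.0 CPM at 0 days and 643 to 738, 501 to 786 and 136 to 251 CPM afterwards, with 3, 3 and 2 of 4 higher. Myog and Myod1 were the most abundant of them, so the sum mostly follows these genes. Pax7 had means of 1.08 CPM at 0 days and 0.96, 0.58 and 1.23 CPM afterwards. With RLE factors 1 of the 4 markers was lower at 30 days. Endothelial markers went from 307 to 362 CPM to 174 to 261, 259 to 291 and 276 to 419 CPM, with 6, 2 and 1 of 6 lower and 0, 0 and 1 higher, but with library totals 1, 0 and 0 were lower and 0, 2 and 5 higher, and with RLE factors 4 were lower at 30 days. Schwann cell markers went from 51.0 to 80.8 CPM to 29.4 to 52.1, 50.1 to 90.9 and 96.7 to 216 CPM. Of these 6 markers, 1, 3 and 6 were higher and 2, 0 and 0 lower. Adipocyte markers went from 56.4 to 83.8 CPM to 28.1 to 46.8, 29.2 to 55.1 and 94.2 to 166 CPM. Of the 5 tested, 0, 0 and 4 were higher and 1, 1 and 0 lower. Lipe had means of 49.4, 20.4 and 23.4 CPM at 0, 10 and 30 days, so the sum mostly follows it there. Adipoq had means of 11.35, 8.15 and 12.4 CPM at those times. Smooth muscle markers went from 229 to 320.0 CPM to 85.3 to 133, 167 to 208 and 165 to 397 CPM, with 4, 2 and 0 of 4 lower (2, 0 and 0 with library totals). T cell markers summed to at most 0.848 CPM at 0 days and 2.56 CPM afterwards. Red blood cell markers went from 600.0 to 1950 CPM to 197 to 262, 274 to 698 and 352 to 868 CPM, with 3, 1 and 0 of 3 lower (3, 0 and 0 with library totals).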
